A study of Mus musculus with 6 samples.

Results

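The tumour necrosis factor (TNF) superfamily was examined in mouse liver through the array probe sets that the platform annotation names with exactly 1 symbol of a TNF ligand, a TNF receptor or one of their adaptors. The symbols taken were those beginning with Tnfsf or Tnfrsf, the older names of the family (Tnf, Lta, Ltb, Ltbr, Cd40, Cd40lg, Cd27, Fasl, Ngfr, Eda and Edar), and the adaptors Tradd, Fadd, Ripk1 and the Traf genes. This gave 70 probe sets of 44 genes, out of 12393 genes named in the table. They comprise 13 ligands, 6 receptors with a death domain, 15 receptors that act mainly through TRAF proteins, 3 decoy receptors and 7 adaptors. Ripk1, Traf3, Tnfsf12, Tnfsf13, Tnfsf15, Tnfsf18, Tnfsfm13 and Tnfrsf26 had no probe set named by 1 symbol and were not analysed here, and 2 further probe sets that carry several Tnfsf symbols were not used.

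The samples were livers of 6 KK/H1J mice, all male, of a polygenic obese and diabetic inbred strain, 12 to 14 weeks old and about 35 g in weight. A group of 3 mice (23, 28 and 36) had received the adenovirus Ad-BPD, whose insert is a bisphosphatase-deficient PFK-2. The normal enzyme both makes and breaks a sugar phosphate that stimulates glycolysis, and this form lacks the activity that breaks it. The control group of 3 mice (22, 29 and 31) had received Ad-GFP, an adenovirus with green fluorescent protein. Both viruses were given into the tail vein at the same stated dose, and livers were taken after 7 days from mice fed freely. Every mouse analysed thus carried an adenovirus, so neither group is an untreated liver, and the promoter that drives either insert is not given in the sources used here.

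TNF ligands are mostly trimeric proteins on the surface of immune cells or shed from it, and their receptors sit on a wide range of cells. Receptors with a death domain can bind Tradd or Fadd and so start caspase-driven death, whereas the others recruit TRAF proteins that lead to NF-kB, the transcription factor of many inflammatory genes. In the liver, TNF receptor 1 and the lymphotoxin beta receptor are known on hepatocytes and other resident cells, and lymphotoxin and TWEAK signalling have been tied to regeneration and to progenitor cells.

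Each array gave 1 signal intensity per probe set, with 1 mouse per array. The median signal was 174, 196.8 and 176.5 on the BPD arrays, against 135.2, 157.1 and 142.7 on the GFP arrays. Differences below are therefore of log2(signal + 16.3) after each array was centred on its median, written as BPD minus GFP with the standard error (SE) of the limma fit, and they understate changes of dim genes. On that scale the median of all 13575 probe sets past the brightness filter was -0.21, against 0.10 under the deposited scaling and -0.06 after quantile normalization. Signals themselves are given as deposited. Ratios of 3′ to 5′ signal for Gapdh, a check of RNA quality, were 0.735 to 0.863 in BPD livers and 0.785 to 0.900 in GFP livers. Hepatocyte markers were bright in every liver. Their summed signal was 107100 to 115500 in BPD livers and 158800 to 170300 in GFP livers, and all 10 measured markers fell (4 by quantile normalization, 6 by the deposited scaling).

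Most of the family was dim in these livers. The filter asks for a mean over all 6 arrays corresponding to a signal of about 98.9, and 17 probe sets of 14 member genes passed it, while 53 probe sets did not. Of those that did not, 39 stayed under that signal in each liver. Because so few members were bright, the fit was run a second time on all 22626 probe sets, so that each member had a difference and an adjusted p. In the fit with the filter 4 of the 17 member probe sets passed an adjusted p of 0.05 (limma, Benjamini-Hochberg over all probe sets), a share of 23.5% against 28.6% of all probe sets tested. They were 2 higher (11.8%, against 8.29% of all) and 2 lower (11.8%, against 20.3% of all) in BPD livers. Among them Tnfrsf12a and Tnfsf8 passed the filter only through the group in which they were brighter. Without the filter 9 of 70 passed, 12.9% against 16.1% of all probe sets, with 6 higher (8.57%, against 5.27%) and 3 lower (4.29%, against 10.8%). The family's share of calls was thus near that of all probe sets in both fits, and its median difference of -0.16 past the filter lay near the -0.21 of all. The 16.1% covers bright and dim probe sets together, however, and most members are dim. Of all dim probe sets 6.4% were called in the fit without the filter, and 47 of the 53 dim member probe sets were not called. The rest were called, a larger share than that 6.4%, and this difference was not tested. They were Cd27, Ltb, Lta, Tnfrsf11a (1430259_at), Tnfrsf12a (1418572_x_at) and Eda (1449524_at). The filtered split was 3 higher and 1 lower under the deposited scaling, where 16.7% of all probe sets were higher and 9.68% lower. It was 2 higher and 1 lower after quantile normalization, against 12.4% and 12.0% of all. In deposited signals the groups were separate in 22 member probe sets, where 34.2% of all probe sets were. The BPD livers were the higher in 17 (24.3%, against 22.0% of all probe sets) and the lower in 5 (7.14%, against 12.2% of all). After centring the counts were 9 above (12.9%, against 10.5% of all) and 12 below (17.1%, against 29.8% of all).

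**Figure D1:**
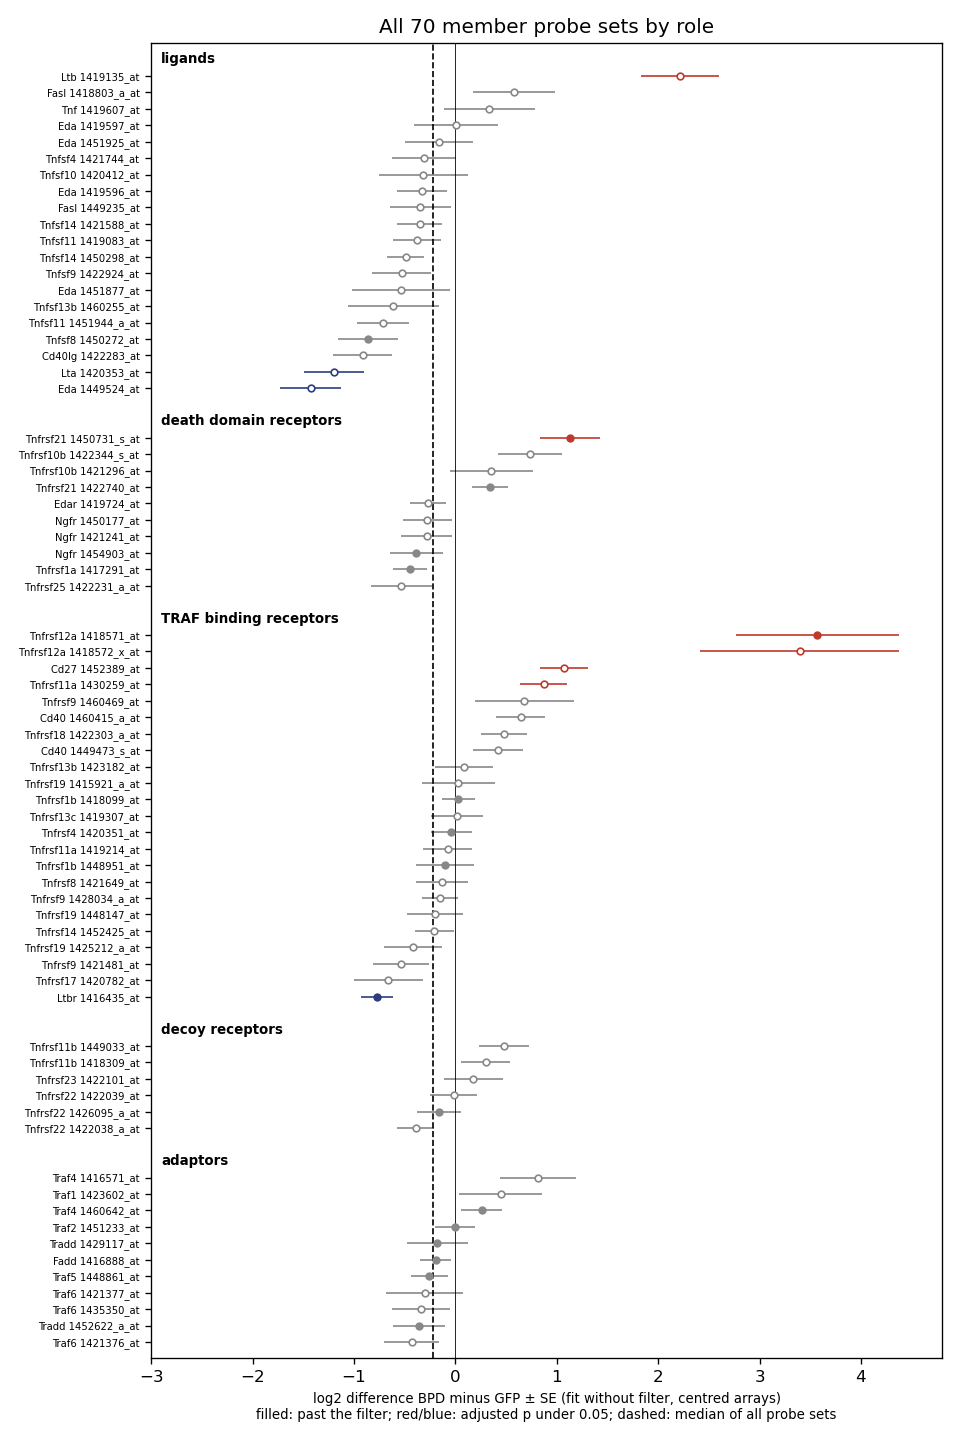
The log2 difference BPD minus GFP with its SE is plotted for each of the 70 member probe sets, grouped by role, in the fit without the filter (3 livers per group, horizontal axis in log2 units). Filled points passed the brightness filter, red and blue points have a limma adjusted p under 0.05 in this fit, and the dashed line is the median of all probe sets at -0.22. The Tnfrsf12a and Ltb probe sets stand furthest to the right, and most other members lie within 1 log2 unit of 0.

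The largest difference among the 70 probe sets was that of Tnfrsf12a, also called Fn14, the small receptor of the ligand TWEAK that binds TRAF proteins and is known to be induced in injured and regenerating tissue. The probe set 1418571_at read 1431, 1118 and 100.6 in BPD livers 23, 28 and 36, against 21.5, 24.7 and 23.0 in GFP livers 22, 29 and 31. The groups did not overlap, but liver 36 was far below the other BPD livers. The log2 difference was 3.57, or 11.9-fold. The probe set passed the brightness filter only through the BPD livers, so its call in the filtered fit (SE 0.76, limma adjusted p = 0.0087) was partly set by the filter and is not read as support. In the fit without the filter the SE was 0.80 and the adjusted p 0.0195. There it did not survive the removal of a mouse unless that mouse was BPD 36, with adjusted p of 0.0504 to 0.0857. The probe set 1418572_x_at read 829, 719 and 25.03 in BPD livers and 6.13, 6.90 and 6.27 in GFP livers, with a difference of 3.40 ± 0.98 (adjusted p = 0.048 without the filter), and this call was lost under 8 of 13 alternatives. This second probe set repeats the order of the livers. Its GFP signals lie below the added constant, so the size of the rise is uncertain. The lists of macrophage, stellate cell and fibroblast, and cholangiocyte and progenitor markers, given at the end, also had higher sums in BPD livers. Their part in this result was not tested. In a bulk sample more cells of a type and more RNA per cell cannot be told apart. The ligand TWEAK (Tnfsf12) is among the genes not analysed here.

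Lymphotoxin beta was higher and its receptor lower in BPD livers. Ltb encodes lymphotoxin beta, the chain that holds lymphotoxin on the surface of lymphocytes and other cells. It read 283.7, 336.9 and 159.2 in BPD livers 23, 28 and 36, against 41.8, 47.5 and 10.3 in GFP livers 22, 29 and 31. The groups did not overlap, and liver 36 was again the lowest of the BPD livers. Ltb was too dim for the filter through its GFP livers. Without the filter it differed by 2.22 ± 0.38, or 4.65-fold (limma adjusted p = 0.0074), and it stayed past the threshold under all 14 other settings tried with no filter, which include each mouse left out in turn.

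Ltbr, the lymphotoxin beta receptor, which binds that ligand and LIGHT (Tnfsf14), was lower in BPD livers. Its signal was 1063, 936.8 and 905.5 in BPD livers, against 1226, 1279 and 1549 in GFP livers, again without overlap. The log2 difference was -0.77 ± 0.18, or 0.586-fold (limma adjusted p = 0.0112), and it was -0.47 with the deposited scaling (adjusted p = 0.044) and -0.51 with quantile normalization (adjusted p = 0.036). Without BPD mouse 28 the call was lost (adjusted p = 0.053). The 10 hepatocyte markers fell in the same livers with a median difference of -0.82, and their part in the fall of Ltbr was not tested.

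Lta and Tnf lie next to Ltb on mouse chromosome 17. Lta, which encodes lymphotoxin alpha, read 28.5, 12.8 and 35.3 in BPD livers, against 56.2, 69.8 and 53.2 in GFP livers. These dim values did not overlap, and the difference without the filter was -1.20 ± 0.29 (limma adjusted p = 0.027), but the call was lost with the deposited scaling (-0.90, adjusted p = 0.069) and after removal of each mouse except BPD mouse 36 (adjusted p from 0.052 to 0.093). Tnf itself, the founding ligand, read 50.4, 22.5 and 46.1 in BPD livers, against 9.70, 7.64 and 52.7 in GFP livers. GFP liver 31 was the highest of all, so the groups overlapped (difference 0.33 ± 0.45, adjusted p = 0.63). LIGHT (Tnfsf14) lay below the added constant on both of its probe sets in all 6 livers.

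Tnfrsf21, or death receptor 6, a death domain receptor, was higher in BPD livers on 1 of its 2 probe sets. The probe set 1450731_s_at read 479.6, 471.9 and 306.6 in BPD livers, against 137.8, 229.5 and 88.9 in GFP livers, and the difference was 1.13 ± 0.28, or 2.19-fold (limma adjusted p = 0.0168). The probe set 1422740_at read 300.2, 327.5 and 244.0 in BPD livers and 167.3, 209.6 and 162.9 in GFP livers. Neither probe set had overlapping groups in deposited signals. The second differed by 0.34 ± 0.17 after centring (adjusted p = 0.150) and by 0.64 with the deposited scaling (adjusted p = 0.032). The suffix of the first marks a probe set that can match several transcripts, and its call was lost without BPD mouse 23 (0.99, adjusted p = 0.058) or BPD mouse 28 (1.09, adjusted p = 0.064).

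For these receptors and the lymphotoxin pair the 250 bases before the annotated start are shown as RefSeq gives them (GRCm38.p6, read along the gene's strand), since Tnfrsf12a, Tnfrsf21 and Ltb were higher and Ltbr lower in the same livers. Capitals mark matches to a loose form of the NF-kB site (3 G, any 5 bases, 2 C), searched on both strands; its forward and reverse forms can overlap.
Tnfrsf12a (chr17:23677450-23677699, minus strand): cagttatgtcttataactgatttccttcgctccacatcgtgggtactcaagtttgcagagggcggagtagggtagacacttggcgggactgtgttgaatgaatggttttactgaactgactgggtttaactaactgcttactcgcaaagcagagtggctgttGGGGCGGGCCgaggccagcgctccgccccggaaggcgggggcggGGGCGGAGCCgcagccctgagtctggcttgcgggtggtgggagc
Ltb (chr17:35194257-35194506, plus strand): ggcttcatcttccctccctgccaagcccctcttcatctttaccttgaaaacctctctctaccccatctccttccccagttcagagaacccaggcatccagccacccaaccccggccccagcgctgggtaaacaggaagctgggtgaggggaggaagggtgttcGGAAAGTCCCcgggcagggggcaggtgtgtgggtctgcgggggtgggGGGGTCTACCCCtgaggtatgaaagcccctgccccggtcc
Tnfrsf21 (chr17:43016305-43016554, plus strand): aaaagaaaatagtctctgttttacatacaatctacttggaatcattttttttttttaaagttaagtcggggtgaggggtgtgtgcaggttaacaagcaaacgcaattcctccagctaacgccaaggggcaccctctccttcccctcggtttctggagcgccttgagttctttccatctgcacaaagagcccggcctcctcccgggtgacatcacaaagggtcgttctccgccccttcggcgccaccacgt
Ltbr (chr6:125313886-125314135, minus strand): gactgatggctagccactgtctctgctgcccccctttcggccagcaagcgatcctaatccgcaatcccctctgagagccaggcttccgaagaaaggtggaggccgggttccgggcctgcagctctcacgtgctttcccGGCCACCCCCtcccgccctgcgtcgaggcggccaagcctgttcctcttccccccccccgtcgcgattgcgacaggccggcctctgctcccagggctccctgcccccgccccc

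The Tnfrsf12a window holds matches that begin at positions -88 and -44, counted from the start with -1 as the base before it. The Ltb window holds GGAAAGTCCC from position -87, the reverse complement of a match, and a run from -40 in which matches on both strands overlap. The Ltbr window holds 1 match on the minus strand from position -112, and the Tnfrsf21 window holds none of these letters. The pattern is common. It occurs in 45.8% of 32841 such windows over all genes and in 27 of the 40 windows (67.5%) of the 36 members found in the table. The AP-1 pattern TGANTCA, which reads as TGANTCA on the other strand too, occurs in 6.75% of all windows, in 4 of the 40 member windows and in none of the 4 shown. A match describes the letters and is not shown to be a binding site.

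**Figure D2:**
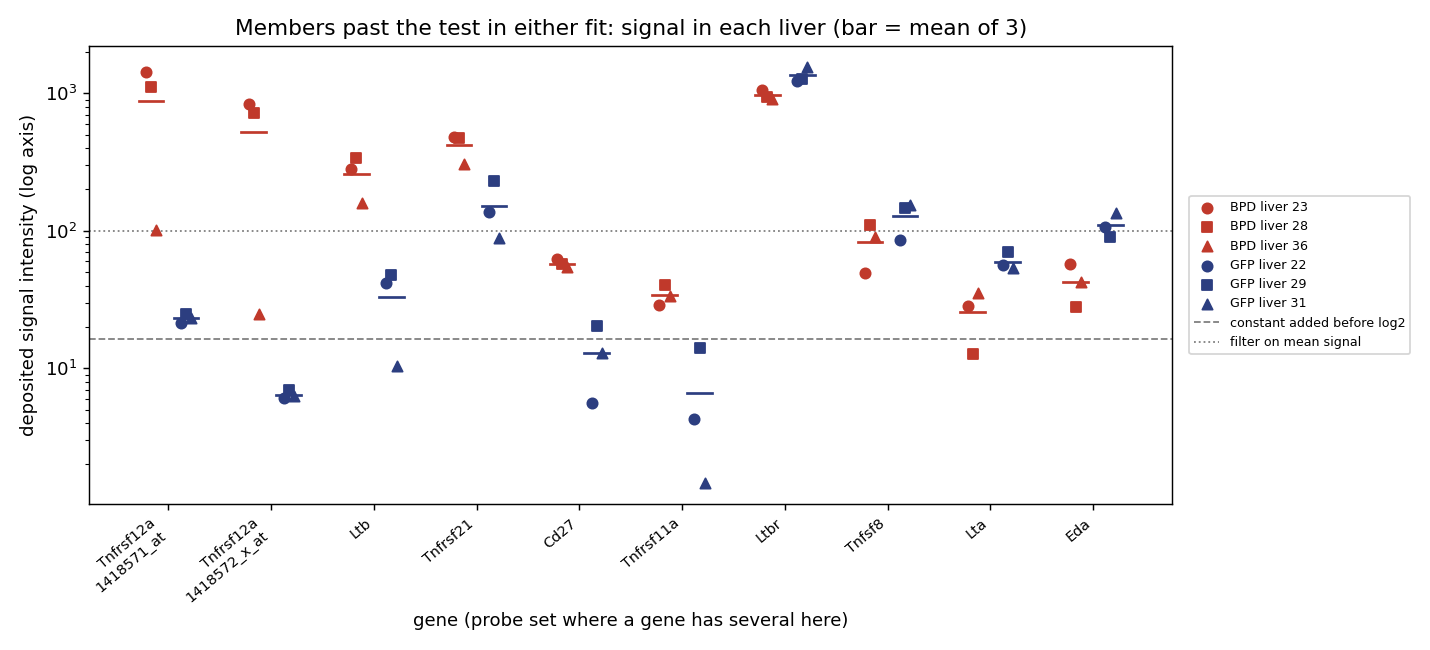
The deposited signal intensity (log axis) is plotted in each liver for the 10 member probe sets past the test in either fit, with BPD livers in red on the left, GFP livers in blue on the right and bars at the means of 3. BPD liver 36 (triangle) lies below the other BPD livers on both Tnfrsf12a probe sets, Ltb and Tnfrsf21, and the GFP signals of several risers lie near or under the dashed line of the constant added before log2.

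Among the other members that passed the test without the filter were a pair of dim TRAF-binding receptors. Cd27, a costimulatory receptor of T and B lymphocytes, read 62.0, 56.9 and 54.2 in BPD livers, against 5.58, 20.2 and 12.8 in GFP livers (difference 1.07 ± 0.24, limma adjusted p = 0.0186). Tnfrsf11a, or RANK, the receptor of the osteoclast factor RANKL, read 28.8, 40.55 and 33.5 in BPD livers and 4.30, 14.1 and 1.47 in GFP livers on probe set 1430259_at (0.87 ± 0.23, adjusted p = 0.037). Neither set of values overlapped. The other RANK probe set, 1419214_at, overlapped between the groups and differed by -0.08, so the probe sets of this gene disagree. The Cd27 call was lost without BPD mouse 23 or 28 or GFP mouse 22 or 31 (adjusted p from 0.051 to 0.062). The RANK call survived the removal of GFP mouse 29 but of no other mouse, and was lost with the larger added constant (0.40, adjusted p = 0.068).

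The partners of these receptors gave no call. RANKL (Tnfsf11) read 16.1 to 28.1 in BPD livers and 19.2 to 26.9 in GFP livers on probe set 1419083_at. On 1451944_a_at it read 2.58, 4.77 and 4.70 in BPD livers, against 20.1, 5.80 and 8.33 in GFP livers, without overlap but mostly under the added constant (-0.72 ± 0.25, limma adjusted p = 0.089). Osteoprotegerin (Tnfrsf11b), the secreted decoy for RANKL, read 80.4, 136.7 and 129.7 in BPD livers, against 48.1, 63.8 and 65.9 in GFP livers on probe set 1449033_at. These values did not overlap, but the difference of 0.48 ± 0.25 did not pass (adjusted p = 0.21). The ligand of Cd27 is no member by the rule.

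Falls among the ligands other than Lta were those of Tnfsf8 and Eda. Tnfsf8, the CD30 ligand of activated immune cells, was the only ligand past the filter. Its mean in BPD livers (83.0) lay under the filter signal, so it passed only through the GFP livers. It read 49.15, 109.9 and 89.9 in BPD livers, against 85.5, 147.5 and 153.9 in GFP livers, and GFP liver 22 lay within the BPD range. Its difference was -0.87 ± 0.29 (limma adjusted p = 0.0492), a call partly set by the filter and not read as support. This call was lost with the deposited scaling (-0.56, adjusted p = 0.235), with quantile normalization, with array weights, with the smaller added constant, without the filter (adjusted p = 0.0796) and after removal of each mouse except GFP mouse 22. The receptor of Tnfsf8, Tnfrsf8 or CD30, read 40.9 to 64.7 in BPD livers and 29.4 to 58.2 in GFP livers.

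Eda, the ectodysplasin of skin appendage development, has 5 probe sets here. On 1449524_at it read 56.9, 28.0 and 42.1 in BPD livers, against 107.0, 89.6 and 134.0 in GFP livers, without overlap (difference -1.42 ± 0.30, limma adjusted p = 0.016 without the filter). Its other 4 probe sets overlapped between the groups and did not pass. The call was lost without BPD mouse 28 or GFP mouse 22 or 31 (adjusted p from 0.052 to 0.066). Its receptor Edar lay below the added constant in all 6 livers, with signals of 4.02 to 6.79.

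Neither receptor of TNF itself passed the test. Tnfrsf1a, or TNF receptor 1, the death domain receptor through which TNF acts on hepatocytes, read 1600, 1855 and 2151 in BPD livers and 1723, 2105 and 2377 in GFP livers. These deposited signals overlapped, whereas on centred arrays all BPD livers were below the GFP livers. The difference was -0.44 ± 0.18 after centring (limma adjusted p = 0.091), -0.14 under the deposited scaling and -0.07 after quantile normalization. Without BPD mouse 36 it passed (-0.57, adjusted p = 0.047). Tnfrsf1b, or TNF receptor 2, the form of immune and endothelial cells that binds TRAF2, read 374.4, 342.1 and 346.0 in BPD livers, against 283.0, 280.5 and 271.2 in GFP livers on probe set 1418099_at. The deposited signals did not overlap, yet after centring the difference was 0.03 ± 0.16 (adjusted p = 0.90), and with the deposited scaling it was 0.33 and did not pass. Its second probe set overlapped and differed by -0.11 ± 0.27.

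TRAIL, Fas ligand and the TRAIL receptor did not pass the filter. TRAIL (Tnfsf10) read 9.96, 42.9 and 6.30 in BPD livers and 40.5, 11.7 and 6.56 in GFP livers. Its receptor Tnfrsf10b, or DR5, read 68.9, 64.1 and 28.8 in BPD livers, against 18.4, 26.2 and 7.99 in GFP livers on 1422344_s_at, without overlap but with no call (0.73 ± 0.32, limma adjusted p = 0.144), and 55.4, 66.4 and 25.5 in BPD livers, against 33.8, 43.1 and 4.94 in GFP livers on 1421296_at, which overlapped. The mouse TRAIL decoy receptors Tnfrsf22 and Tnfrsf23 did not pass the test. Tnfrsf22 was past the filter on probe set 1426095_a_at (-0.16 ± 0.20, limma adjusted p = 0.57). Fas ligand (Fasl) gave discordant probe sets, with differences of 0.57 ± 0.40 and -0.35 ± 0.30. The first of these passed without GFP mouse 31 (1.08, adjusted p = 0.036), the only GFP liver in which it read above the added constant. Fas, its receptor, is no member by the rule and is given among the pathway genes.

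Apart from Cd27, the costimulatory receptors and the CD40 ligand did not pass the test. CD40, the activating receptor of B cells, dendritic cells and macrophages, read 148.5, 159.6 and 103.1 in BPD livers, against 50.1, 84.1 and 56.5 in GFP livers on probe set 1460415_a_at. The groups did not overlap on either CD40 probe set, but the differences of 0.64 ± 0.24 and 0.43 ± 0.25 did not pass (limma adjusted p = 0.105 and 0.26 without the filter). The CD40 ligand of activated T cells (Cd40lg) read 38.0, 100.5 and 82.1 in BPD livers, against 107.0, 116.9 and 119.5 in GFP livers, with a difference of -0.91 ± 0.29 (adjusted p = 0.065). It passed with the larger added constant (-0.75, adjusted p = 0.047). Tnfrsf4, the costimulatory receptor OX40 of T cells, was past the filter at 348.1, 500.8 and 369.6 in BPD livers and 247.3, 353.1 and 417.8 in GFP livers, and it overlapped. Tnfrsf18, or GITR, did not overlap in deposited signals (74.1 to 88.2 in BPD livers, 32.2 to 45.2 in GFP livers) and differed by 0.48 without passing.

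The remaining receptors and ligands lay in the dim range and did not pass. They were the BAFF receptors and their ligand (Tnfrsf13b, Tnfrsf13c, Tnfrsf17 and Tnfsf13b), which serve B cells, the costimulatory pair 4-1BB (Tnfrsf9) and its ligand Tnfsf9, the OX40 ligand Tnfsf4, the LIGHT receptor Tnfrsf14, Tnfrsf19 and the death domain receptors Tnfrsf25 and Ngfr, of which 1 Ngfr probe set was past the filter (-0.38, limma adjusted p = 0.27). Over all 47 dim probe sets that did not pass, differences ran from -0.91 to 0.82 and adjusted p from 0.065 to 0.99.

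The adaptors gave 0 calls among 11 probe sets in the fit without the filter (limma), where 16.1% of all probe sets were called, and 0 had an unadjusted p under 0.05. Fadd, which couples death receptors to caspase-8, read 367.1, 454.0 and 420.1 in BPD livers and 394.2, 413.2 and 338.9 in GFP livers (-0.19 ± 0.15, adjusted p = 0.37). Tradd, the first adaptor of TNF receptor 1, differed by -0.36 and -0.18 on its 2 probe sets, with overlap on both. Traf2, which links TNF receptors to NF-kB and survival, read 203.9, 201.5 and 172.4 in BPD livers, against 160.3, 138.1 and 162.4 in GFP livers. Those deposited signals did not overlap, but the centred difference was 0.00 ± 0.19. Traf4, best known from development and epithelia, showed the same order on 1460642_at (313.1, 297.6 and 295.1 in BPD livers, against 167.7, 184.4 and 255.8 in GFP livers) and a centred difference of 0.26 ± 0.19. Its dim probe set 1416571_at read 88.2, 122.9 and 98.2 in BPD livers, against 13.4, 43.8 and 75.0 in GFP livers. That difference was larger, at 0.82 ± 0.37, and did not pass (limma adjusted p = 0.166 without the filter). Traf1, itself an NF-kB target, read 57.7, 28.5 and 5.43 in BPD livers and 8.98, 12.7 and 4.34 in GFP livers, with overlap. Traf5 differed by -0.25, and the 3 probe sets of Traf6, the adaptor of CD40 and RANK as well as Toll-like receptors, by -0.43 to -0.30.

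**Figure D3:**
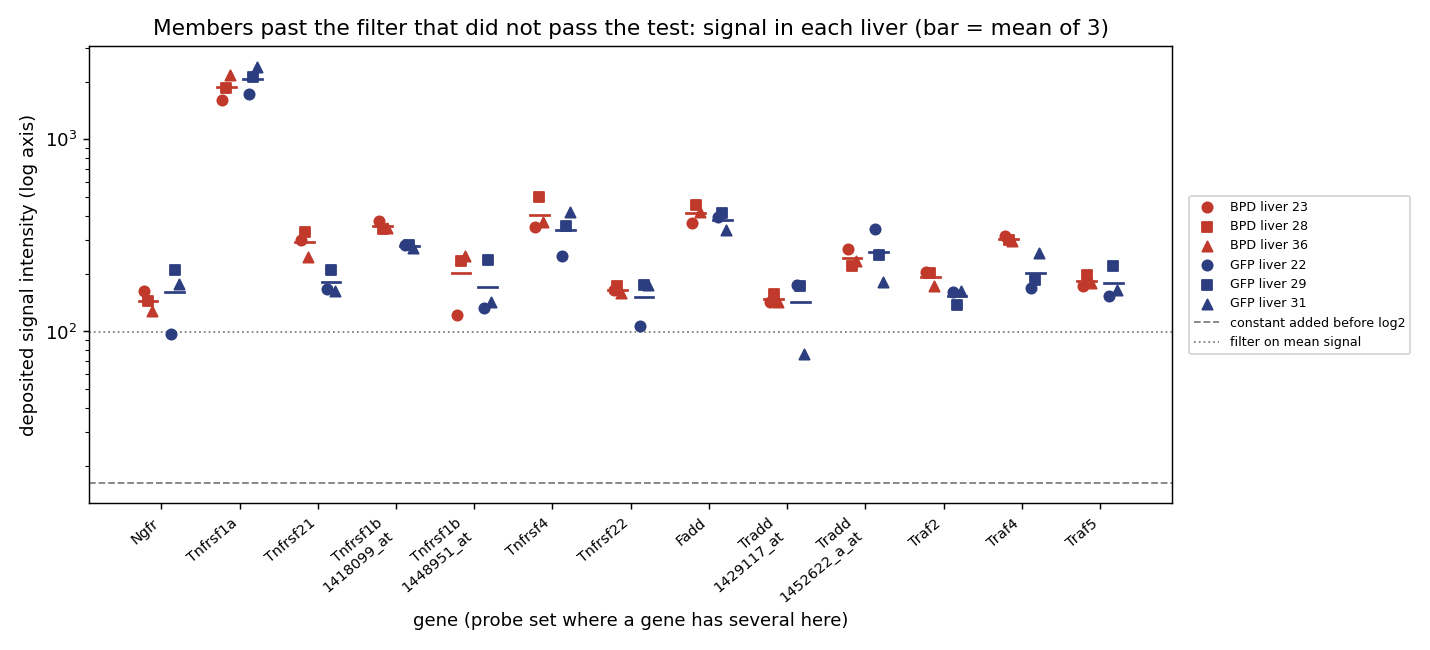
The deposited signal intensity (log axis) is plotted in each liver for the 13 member probe sets that passed the brightness filter but not the test, with BPD livers in red on the left, GFP livers in blue on the right and bars at the means of 3. The Tnfrsf1a groups overlap, at 1600 to 2151 in BPD livers and 1723 to 2377 in GFP livers.

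Other genes of the pathway were taken from lists of NF-kB components, NF-kB target genes, death signalling, ubiquitin editing and receptor shedding. Of 67 genes listed 47 were past the filter with 1 probe set each, and of these 7 rose and 5 fell (limma adjusted p under 0.05). These shares of 14.9% and 10.6% compare with 8.75% and 22.2% of all 8151 genes tested. The lists were drawn up with earlier results of these data known. Their median difference was 0.06, against -0.22 for all genes. Under the deposited scaling 14 rose and 3 fell, while the shares over all genes turned to 17.2% higher and 11.1% lower. After quantile normalization 11 rose and 5 fell, against 12.6% and 12.9% of all genes.

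Among the NF-kB target genes 4 of 16 rose and 1 fell, against 6 and 1 under the deposited scaling and 5 and 1 after quantile normalization. Icam1, the adhesion molecule that binds leukocyte integrins, read 1082, 1261 and 679.1 in BPD livers, against 230.5, 302.1 and 151.4 in GFP livers, and rose by 1.77 ± 0.26 (limma adjusted p = 0.0018). Vcam1, an adhesion molecule of endothelium and macrophages, read 3815, 1961 and 834.2 in BPD livers and 294.1, 626.0 and 285.4 in GFP livers (1.95 ± 0.48, adjusted p = 0.0157), although its call was lost without BPD mouse 28 or GFP mouse 22 (adjusted p = 0.0501 and 0.056). Ier3, an early response gene that restrains cell death, rose by 1.30 ± 0.25, but its GFP signals (52.9 to 84.2) lay under the filter signal, so it passed the filter only through the BPD livers (limma adjusted p = 0.0128 without the filter). Cxcl10, a chemokine also driven by interferon, rose by 1.60 ± 0.44, and was named after its values were seen, to complete the count. Its call was lost without BPD mouse 28 or GFP mouse 29 or 31 and with robust eBayes (adjusted p from 0.051 to 0.096). The gene that fell was Sod2, the mitochondrial superoxide dismutase, at 3113, 3031 and 3951 in BPD livers, against 6763, 5936 and 7796 in GFP livers (-1.32 ± 0.19, adjusted p = 0.0017). The classic feedback inhibitors did not pass, with Nfkbia, the inhibitor of NF-kB, at -0.15 ± 0.16 and Tnfaip3, the enzyme A20, at 0.07 (adjusted p = 0.52 and 0.86). Irf1 differed by 0.26 and did not pass, but it was called higher under the deposited scaling (0.56) and after quantile normalization (0.55). Cxcl2, too dim for the filter, was called higher without it (1.18, limma adjusted p = 0.040).

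Of 11 genes for NF-kB subunits, inhibitors and kinases 0 rose and 1 fell, and 2 had an unadjusted p under 0.05. The gene that fell was Ikbkg, the regulatory subunit NEMO of the kinase complex, which read 716.8, 837.5 and 764.2 in BPD livers, against 1273, 1137 and 1054 in GFP livers (-0.87 ± 0.16, limma adjusted p = 0.0049), and kept its call under every alternative run on it. Of 12 genes of death signalling 1 rose and 3 fell, against 3 and 1 under the deposited scaling and 2 and 3 after quantile normalization. Tnfaip8, a TNF-induced gene linked to survival, rose by 1.38 ± 0.32, though not without BPD mouse 28 (adjusted p = 0.0507). Its mean in GFP livers (70.5) also lay under the filter signal, and without the filter its adjusted p was 0.0256. Casp6, an executioner caspase, fell by 0.82 ± 0.16. Bid, which carries the death signal from caspase-8 to mitochondria, had a difference of -0.74 ± 0.19 and Casp9, the initiator caspase of the mitochondrial route, one of -0.64 ± 0.19. Neither call held under the deposited scaling (-0.44 and -0.34), nor with BPD mouse 28 or GFP mouse 31 left out, and that of Casp9 was also lost without the filter or any other mouse but BPD mouse 23. Fas, the receptor of Fas ligand, differed by 0.15 and did not pass. Casp8, the initiator caspase of death receptors, differed by 0.39 and did not pass, but it was called higher under the deposited scaling (0.70) and after quantile normalization (0.67).

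Of the 10 genes of ubiquitin editing and TRAF partnership 0 passed (limma) and 1 had an unadjusted p under 0.05, while with the deposited scaling 3 rose. Of 4 genes of receptor shedding 2 rose and 0 fell. Adam10, a protease that cleaves membrane proteins at the cell surface, read 2079, 2569 and 1778 in BPD livers, against 900.8, 1149 and 707.1 in GFP livers (0.92 ± 0.19, adjusted p = 0.0083). Rhbdf1, a pseudoprotease that helps mature the TNF-releasing enzyme Adam17, rose by 0.63 ± 0.18 (adjusted p = 0.025), though not on leaving out BPD mouse 23 or 28 or GFP mouse 22 or 29. Adam17 itself differed by 0.41 and did not pass (adjusted p = 0.084), but it was called higher under the deposited scaling (0.71) and after quantile normalization (0.53).

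**Figure D4:**
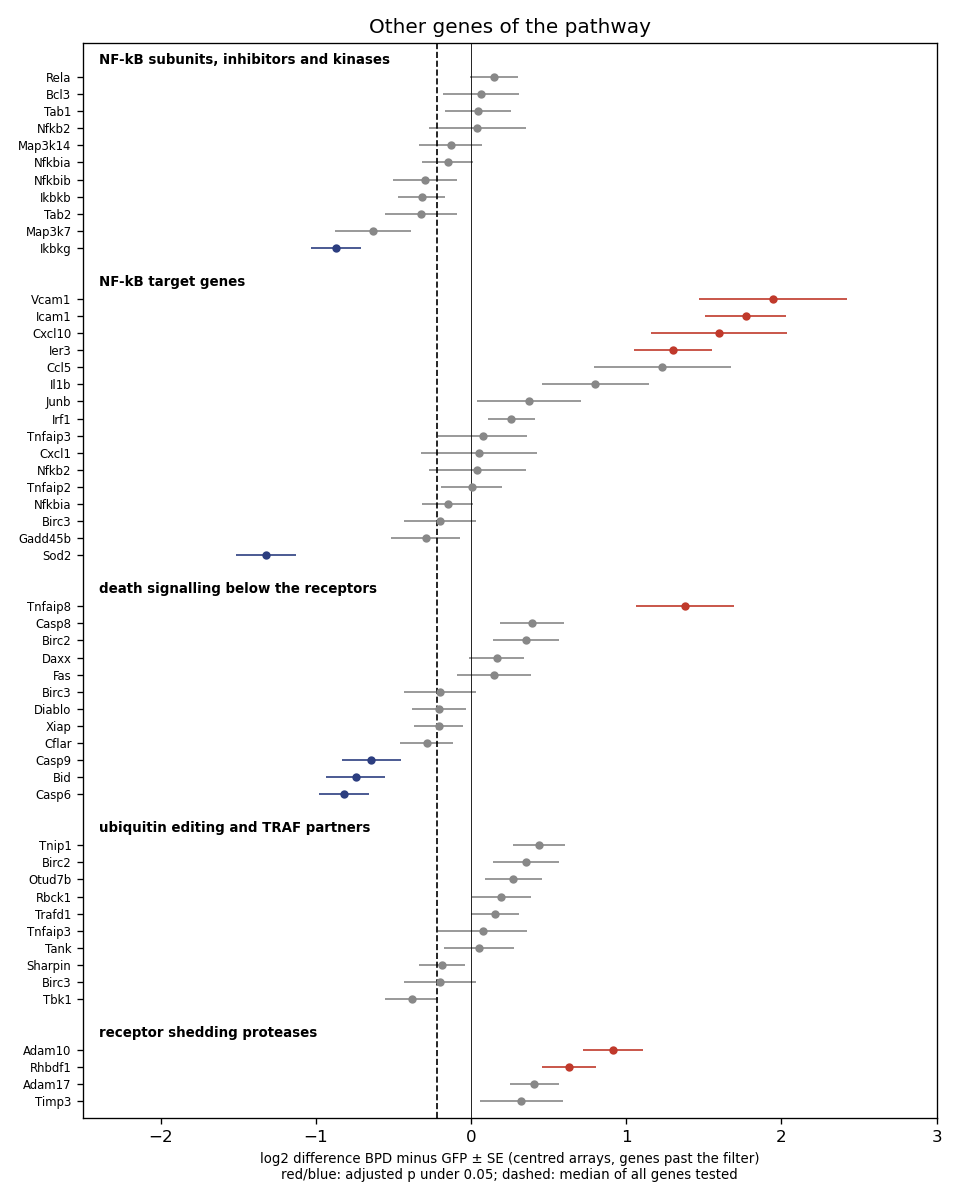
The log2 difference BPD minus GFP with its SE is plotted for the pathway genes past the filter, by list (3 livers per group, horizontal axis in log2 units; a gene on 2 lists appears on each). Red and blue points have a limma adjusted p under 0.05, and the dashed line is the median of all genes tested at -0.22. Icam1, Vcam1, Cxcl10, Ier3, Tnfaip8, Adam10 and Rhbdf1 lie to the right, and Sod2, Ikbkg, Casp6, Bid and Casp9 to the left.

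Markers of the cells that carry these ligands and receptors moved in the same livers. Of the macrophage markers 8 of 12 past the filter rose, against 8.75% of all genes tested. Without the filter 5 of 14 rose, against 5.27% of all probe sets. Their summed signal was 41100, 37290 and 19050 in BPD livers 23, 28 and 36, against 9731, 16370 and 5460 in GFP livers 22, 29 and 31. Of those without a call, Csf1r differed by 1.19, Mpeg1 by 1.13, Vsig4 by 0.48 and Marco by 0.08. Clec4f (-0.58) and Cd163 (-1.25) lay the other way, also without a call. Of the stellate cell and fibroblast markers 3 of 10 rose in either fit, with sums of 18540, 16860 and 5618 in BPD livers and 5091, 4999 and 3909 in GFP livers. Those called past the filter were Col1a1, Col3a1 and Vim. The others on that list ran from -0.28 for Lrat and -0.12 for Dcn to 1.78 for Col1a2. In both lists BPD liver 36 was the lowest of the BPD livers, as it was for 5 of the 6 member probe sets that were higher without the filter. Neutrophil markers rose in 3 of 8 cases without the filter (4 of 5 past it), with sums of 1821 to 8239 in BPD livers and 478.9 to 805.0 in GFP livers. Cholangiocyte and progenitor markers rose in 2 of 7 cases without the filter (2 of 3 past it), with sums of 1660 to 2813 in BPD livers and 274.4 to 383.8 in GFP livers. The 2 were Cd24a and Krt23. Cd24a made up most of the BPD sums, at 1483, 1531 and 1277, against 131.1, 71.4 and 51.2 in GFP livers. Prom1 (1.52), Krt19 (1.23) and Epcam (0.91) did not pass, and Krt7 (-0.11) and Sox9 (-0.21) did not rise. All 3 cholangiocyte and progenitor markers past the filter had GFP means under the filter signal and so passed through the BPD livers. The same held for S100a8, S100a9 and Ltf among the neutrophil markers. It also held for Col1a1 (GFP mean 17.6), Timp1 (72.0) and Des (90.9) among the stellate cell and fibroblast markers.

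Lymphocyte markers bear on Ltb, Lta and Cd27. Of 4 T and NK cell markers past the filter 1 rose, Cd3g. Its GFP signals (47.7 to 92.9) lay under the filter signal, so Cd3g passed only through the BPD livers. Without the filter, the fit in which Ltb and Cd27 were called, 1 of 10 rose, Cd3e, at 78.8, 94.3 and 113.7 in BPD livers, against 15.4, 29.7 and 19.9 in GFP livers (1.26 ± 0.24, limma adjusted p = 0.0109). Cd3d differed by 1.54 without passing (adjusted p = 0.063). Nkg7, past the filter, differed by 1.37 (limma adjusted p = 0.051 with the filter) and was called higher under the deposited scaling. The list did not move as one. Gzmb differed by 1.03, Cd8b1 by 0.91 and Cd8a by 0.17, whereas Prf1 (-0.62), Gzma (-0.35) and Cd4 (-0.27) lay the other way, all without passing. The list summed to 1320 to 1789 in BPD livers and 435.1 to 1172 in GFP livers. Of 4 B and plasma cell markers past the filter 0 rose and 1 fell, Xbp1, which hepatocytes also express (not called under the other scalings). The list summed to 7398 to 10510 in BPD livers and 9104 to 11650 in GFP livers, mostly signal of Xbp1 and Sdc1. Jchain, on the same list, read 388.5, 531.1 and 137.5 in BPD livers, against 82.1, 102.6 and 132.2 in GFP livers. Its difference of 1.13 ± 0.39 did not pass (limma adjusted p = 0.056), but it was called higher under the deposited scaling. The B cell factor Pax5 read 5.52 to 20.1 in BPD livers and 9.89 to 13.9 in GFP livers. The dendritic cell marker Itgax rose (1 of 1 past the filter), the list summed to 363.5 to 759.4 in BPD livers and 240.8 to 350.4 in GFP livers, and Ccr7 lay below the added constant in all 6. Of 9 endothelial markers 1 rose and 1 fell, with no fall called under the other scalings (3082 to 4633 in BPD livers, 2725 to 4338 in GFP livers). The part of these markers in the differences of the family was not tested.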

How the data were processed

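Liver RNA of 6 mice was hybridised to 1 one-colour array each. The deposited values are signal intensities on a linear scale, made with MAS5 per the submitters' processing notes; no source used here gives its version or target setting, and every array had the same trimmed mean of 499.9. Of 22690 probe sets 64 controls were dropped, leaving 22626, of which the platform annotation names 20380 with 1 symbol, 691 with several and 1555 with none; 20351 matched RefSeq by Entrez identifier. Signals were taken as log2(signal + 16.3), a constant of 10% of the median of all values, and each array was centred on its median. Probe sets with a mean above the 40th percentile (13575) entered limma 3.58.1 in R 4.3.3 (lmFit and eBayes with an intensity trend, residual degrees of freedom 4, Benjamini-Hochberg adjustment over all of them, threshold 0.05), which was checked on simulated data.

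Members, lists and tests were chosen with earlier results of these data known. Genes named are members past the threshold, their partners, a fixed set of central members and, per pathway list, up to 4 genes with the smallest p. For lists, a gene has 1 probe set. Alternatives were the deposited scaling, quantile normalization, constants of 25% and 2%, no filter, the 60th percentile, robust or untrended eBayes, array weights, no multi-transcript probe sets and each mouse left out. The combinations of no filter with each other choice were added after seeing the data. The number of mice limits the precision.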

Additional observations from a re-analysis of the deposited data

How the results depend on the processing

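The count of 4 called member probe sets was 9 of 70 without the filter and 1 of 5 with the stricter filter, and leaving out 1 mouse gave 1 to 4 (1 without BPD mouse 28 and 2 without BPD mouse 23). Higher calls (2) numbered 6 without the filter and 0 with the stricter filter, and 1 to 2 with a mouse left out; lower calls (2) numbered 1 with array weights, the deposited scaling, quantile normalization, the smaller constant or the stricter filter, and 0 to 2 with a mouse left out. The 12 called pathway genes numbered 6 to 12 with a mouse left out (6 without BPD mouse 28); higher calls (7) numbered 14 with the deposited scaling, 11 with quantile normalization and 3 to 8 with a mouse left out, and lower calls (5) 3 with the deposited scaling and 3 to 5 with a mouse left out. Without the filter, Ltb was the only member called higher after removal of BPD 23, of BPD 28 or of GFP 22, and after removal of GFP 31 Fasl joined it. Several uncalled members changed sign. The deposited scaling adds 0.30 to the difference of every probe set, which put Fadd at 0.11, Tnfrsf1b (1448951_at) at 0.20, Tnfrsf22 at 0.14, Tnfrsf4 at 0.26, Tradd (1429117_at) at 0.13, Traf2 at 0.30 and Traf5 at 0.0463. With quantile normalization Tnfrsf4 was at 0.0422 and Traf2 at 0.0002, and with array weights Tnfrsf1b (1418099_at) was at -0.0042, Tnfrsf4 at 0.0385 and Traf2 at 0.0189. The cause of the changes other than under the deposited scaling was not tested. Leaving out 1 mouse gave -0.0403 to 0.10 for Tnfrsf1b (1418099_at), -0.30 to 0.16 for its other probe set, -0.20 to 0.13 for Tnfrsf4, -0.51 to 0.0449 for Tradd (1429117_at), -0.12 to 0.07 for Traf2, and without the filter -0.0882 to 0.63 for Tnfrsf10b (1421296_at) and -0.69 to 0.11 for Tnfsf10. No paired analysis was possible because the mouse numbers of the BPD and GFP groups are all different. Signals under the added constant, found in 28 member probe sets, limit the size of any difference.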
